A study of Homo sapiens with 6 samples.

Results

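The genes described here are 10 members of the S100 family that SW480 cells express: S100A2, S100A3, S100A4, S100A6, S100A10, S100A11, S100A13, S100A14, S100A16 and S100P. They were chosen by symbol from a table of 60605 genes, and each symbol matched 1 gene. SW480, an established line of human colon adenocarcinoma cells, was infected with a lentivirus carrying either no insert (vector, n = 3 libraries) or the gene TIPE (n = 3 libraries), and both groups were then selected with puromycin before poly(A) RNA sequencing. The labels do not say whether the selected cells were a pool or a clone, and they name no separate infection or culture for each library. The p-values therefore reflect only the spread among these libraries, which may be technical.

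TIPE is the gene TNFAIP8, which was at 0.84 to 1.34 FPKM in the vector libraries and at 530 to 626 FPKM in the TIPE libraries, as the labels have it. FPKM divides a gene's count by its exonic length and by the library's total count, which sets genes of different length side by side. The length is the deposited exonic size, which may differ from that of the transcript made, so the order of genes depends on it. Total counts ran from 13957349 to 20345330 per library, so that a count of 0 allows up to 0.147 to 0.215 CPM, the count scaled to library total, counting error only. TIPE replicate 3 stood apart from its group, with a chi-square per gene of 7.76 and 8.28 against the other TIPE libraries, where all other pairs within a group gave 2.32 to 3.86. Of 9 colon epithelial markers, 5 were above the expression minimum, with a sum of 914 to 982 FPKM over the list in vector and 1250 to 1290 in TIPE libraries. In mean FPKM, KRT8 rose from 342 to 419, KRT18 from 478 to 747 and CDX2 from 1.33 to 2.4. EPCAM fell from 105 to 87, and VIL1, at 19 and 16.9, did not pass (edgeR adjusted p = 0.185). KRT20, CDH17, LGALS4 and CEACAM5 lay under the minimum. Markers of leukocytes and macrophages summed to 0.69 to 0.78 FPKM in vector and 0.57 to 0.95 FPKM in TIPE libraries over 7 genes, with PTPRC and FCGR3A at 0 counts in every library. The 6 fibroblast markers summed to 1.78 to 2.84 and 2.36 to 3.32 FPKM with COL1A2 and COL3A1 at 0. Most of this was LUM, the only 1 tested, at 1.47 to 2.35 FPKM in vector and 1.73 to 2.66 FPKM in TIPE libraries. It did not pass (log2 fold change 0.23, edgeR adjusted p = 0.314). PDGFRB, under the minimum, rose from 0.17 to 0.34 FPKM in vector to 0.51 to 0.56 FPKM in TIPE libraries (edgeR adjusted p = 3.16e-07 without the expression minimum). The 3 endothelial markers summed to at most 0.30 FPKM. Of 5 keratinocyte markers found, KRT1 and IVL were at 0, and the list summed to 20.6 to 21.1 FPKM in vector and 16.6 to 18.5 FPKM in TIPE libraries. KRT10, its only tested gene, fell (log2 fold change -0.18, edgeR adjusted p = 0.0351), and so did KRT5, which was at 0.01 to 0.18 FPKM (edgeR adjusted p = 0.0301 without the minimum). Adjusted p-values from the fit without the minimum are not on the scale of the others. The part of these marker shifts in the results for the S100 genes was not tested.

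S100 proteins are small proteins with paired EF-hand helix-loop-helix calcium sites that mostly act as dimers. On binding calcium most of them open a surface that holds a target protein, and several are also released from cells and bind the receptor AGER (RAGE). Most of their genes form a cluster on the long arm of chromosome 1, within the epidermal differentiation complex. In colon tumours S100A4 and S100P are best known for their links to cell motility and metastasis.

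Of the 10 genes, 9 lie on chromosome 1 and all of these are on the minus strand, from S100A10 (151982915 to 151993859, hg38) to S100A13 (153618787 to 153631360). S100P lies alone on chromosome 4 (6693878 to 6697170, plus strand). Between these ends of the chromosome 1 stretch the table holds 71 genes that are not named S100, of which 52 had 0 counts in all libraries. Only 2 of the 71, neither with a symbol, were expressed enough to be tested, with log2 fold changes of -0.39 and -0.23 that did not pass (edgeR adjusted p = 0.421 and 0.401).

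The promoter windows of 5 genes are shown because these genes span the responses measured: S100A4 and S100P rose most, S100A14 fell, S100A6 was the most abundant and S100A10 did not pass the test. Each window runs from 250 bases before the RefSeq gene start to 50 bases after it (build GRCh38.p14, 5′ to 3′ on the gene's strand). Capitals mark matches on either strand to TATAAN for a TATA box, GGGCGG for a GC box, CCAAT for an NF-Y site, TGANTCA for an AP-1 site, CACCTG for an E-box, ACGTG for a hypoxia core, or the NF-kappaB motif. Matches on opposite strands may overlap.
S100A4, chr1:153545757-153546056, minus strand: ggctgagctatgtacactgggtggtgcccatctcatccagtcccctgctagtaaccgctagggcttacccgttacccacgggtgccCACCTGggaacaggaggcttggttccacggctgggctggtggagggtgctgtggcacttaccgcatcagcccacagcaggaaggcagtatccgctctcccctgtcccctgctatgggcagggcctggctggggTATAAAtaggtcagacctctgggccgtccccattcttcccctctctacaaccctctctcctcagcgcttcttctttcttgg
S100P, chr4:6693628-6693927, plus strand: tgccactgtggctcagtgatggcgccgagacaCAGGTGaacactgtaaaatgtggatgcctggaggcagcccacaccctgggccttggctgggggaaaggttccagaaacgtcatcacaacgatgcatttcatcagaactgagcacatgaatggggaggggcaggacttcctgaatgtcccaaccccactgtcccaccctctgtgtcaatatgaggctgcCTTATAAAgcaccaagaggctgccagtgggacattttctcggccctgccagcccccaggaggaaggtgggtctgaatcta
S100A14, chr1:153616276-153616575, minus strand: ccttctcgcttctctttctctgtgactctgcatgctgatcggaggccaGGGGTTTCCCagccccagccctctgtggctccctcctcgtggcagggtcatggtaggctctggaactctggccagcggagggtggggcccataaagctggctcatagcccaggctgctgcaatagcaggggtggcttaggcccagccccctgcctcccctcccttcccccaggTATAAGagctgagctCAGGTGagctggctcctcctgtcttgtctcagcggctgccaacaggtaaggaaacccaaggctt
S100A6, chr1:153535942-153536241, minus strand: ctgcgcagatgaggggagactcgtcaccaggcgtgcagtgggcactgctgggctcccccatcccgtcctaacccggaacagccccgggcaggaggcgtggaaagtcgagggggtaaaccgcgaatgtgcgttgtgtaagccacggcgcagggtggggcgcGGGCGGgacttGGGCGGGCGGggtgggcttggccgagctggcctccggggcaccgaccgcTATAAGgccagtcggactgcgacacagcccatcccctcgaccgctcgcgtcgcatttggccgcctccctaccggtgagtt
S100A10, chr1:151993810-151994109, minus strand: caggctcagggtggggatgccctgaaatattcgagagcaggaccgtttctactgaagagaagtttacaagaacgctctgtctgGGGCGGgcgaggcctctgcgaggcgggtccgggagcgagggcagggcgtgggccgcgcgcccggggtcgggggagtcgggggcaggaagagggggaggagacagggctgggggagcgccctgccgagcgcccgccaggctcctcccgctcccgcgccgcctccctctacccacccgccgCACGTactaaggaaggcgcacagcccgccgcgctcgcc

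RefSeq gave 14 windows for the 10 genes, since S100A2, S100A13 and S100A16 have several starts. A TATA match was found in S100A4, S100P, S100A14, S100A6 and 1 of the windows of S100A13. These are 5 of the 14 windows, and 20.4% of all 35116 windows hold one. These matches began 28 to 31 bases before the start: at -31 in S100A4, -30 in S100A6, -29 in S100A14 and S100A13 and -28 in S100P, each taken on the gene's strand. The TATA letters were first TATAAA, which S100A4, S100P and S100A13 hold, and were widened after the windows of S100A6 and S100A14 were seen to hold TATAAG, so no relation to the fold changes is drawn. An E-box was found in 6 of the 14 windows, of S100A4, S100P, S100A14, S100A2 and S100A16 (20.6% of all windows). An AP-1 site was found in 2 windows, of S100A2 and S100A3 (7.71%). An NF-Y site was found in 3, of S100A3, S100A13 and S100A16 (34.6%), and a hypoxia core in 2, of S100A10 and S100A16 (21.4%). Of the windows shown, S100A6 and S100A10 held GC boxes, with 3 in S100A6, and 45% of all windows hold at least 1. S100A3, S100A11, S100A13 and S100A16 had a GC box too, so that 6 of the 14 windows held one, which is near the 45%. An NF-kappaB match was found in 1 of the 14 windows, that of S100A14, and 5.91% of all windows hold one, so this count is near that share. These matches describe letters in the windows; no binding was measured.

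In the vector libraries the genes fell into a high and a low tier. S100A6 stood highest at 615 ± 19.0 FPKM (SD, n = 3). It was followed by S100A10 at 286 ± 6.96 and S100A11 at 275 ± 25.3, whose ranges overlapped, and by S100A16 at 221 ± 8.27. S100P at 176 ± 2.87 and S100A4 at 171 ± 7.81 FPKM also overlapped. The low tier held S100A13 at 12.1 ± 0.624, S100A2 at 10.7 ± 0.627, S100A3 at 8.60 ± 0.956 and S100A14 at 8.49 ± 0.787 FPKM, of which S100A3 and S100A14 overlapped. In the TIPE libraries S100A6 was still first, but S100P and S100A4 now stood above S100A16. S100A11, S100A10, S100A4 and S100P formed a run there in which each overlapped the next, from 306 ± 18.2 down to 272 ± 10.2 FPKM. The other genes of the family were hardly expressed. S100A5 had 10 to 20 counts per library and S100A1 had 17 to 35, and neither passed the test (edgeR adjusted p = 0.568, and 0.530 without the expression minimum). S100A8, S100A12, S100A7A, S100A7L2, S100G and S100Z had 0 counts in all libraries, and S100A7, S100A9 and S100B had at most 2 in any.

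**Figure D1:**
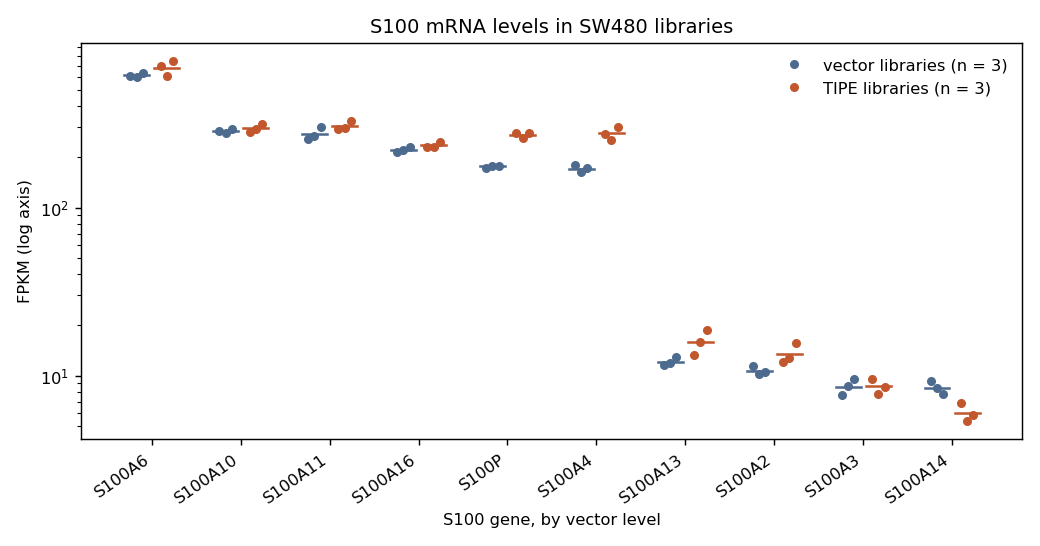
FPKM on a log axis for the 10 S100 genes, ordered by vector level. Points are libraries (3 vector in blue, 3 TIPE in orange) and lines are group means. S100P, S100A4, S100A13 and S100A2 show TIPE points all above the vector points, and S100A14 shows them all below.

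Setting TIPE against vector libraries asks which genes of the tumour cell change when TIPE is raised. S100A4 and S100P rose most, by 1.70-fold and 1.62-fold, S100A13 and S100A2 by less, and S100A6, S100A11 and S100A16 by small amounts. S100A14 was the only 1 of the 10 to fall, and S100A10 and S100A3 did not pass the test. In all, 8 of 10 passed an adjusted p of 0.05 (quasi-likelihood test of edgeR, adjusted by Benjamini-Hochberg over 14205 genes), against 41.5% of all tested genes. Of these, 7 of 10 were higher, against 20.9% of all tested genes, and 1 was lower, against 20.7%. Over all genes 2967 were higher and 2935 lower, a split that became 2137 and 3880 with no TMM factors, where 4 members were higher and 1 lower. Their log2 fold changes had a median of 0.22, against -0.00048 for all tested genes. All 10 genes had passed the expression minimum, a mean of 0.5 FPKM over the 6 libraries. The FPKM ranges of the groups did not overlap for 5 of the 10, against 50.5% of all tested genes.

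Base composition and length moved with this result, and their part in it was not tested beyond the fit given here. The 10 genes have 52.8% to 60.2% GC and 471 to 2216 bp of exon, against medians of 48.4% and 4440 bp over the tested genes. When each library's smooth trend on GC content and exonic length was removed, 4 of 10 were higher (S100A4, S100P, S100A13 and S100A2), against 17.6% of all tested genes. S100A14 was still lower, against 16.8%, and S100A6, S100A11 and S100A16 no longer passed. The median log2 fold change of the 10 fell to 0.071, against -0.0047 over all tested genes. With no TMM factors the median of the 10 was 0.15, where that of all tested genes moved to -0.072. Without vector replicate 1 or vector replicate 2, S100A6, S100A11 and S100A16 did not pass either, and 5 of the 10 genes passed in place of 8. The log2 fold changes of these 3 genes were 0.22, 0.22 and 0.16 as reported. Without vector replicate 1 or 2 they were 0.20 and 0.19 for S100A6, 0.16 and 0.19 for S100A11 and 0.13 and 0.14 for S100A16. Without vector replicate 3 they were 0.24, 0.30 and 0.19, so the size for S100A11 depended on the vector library left out. TIPE replicate 3, which stood apart, was the highest TIPE library for S100A2, S100A4, S100A6, S100A10, S100A11, S100A13, S100A16 and S100P. Without it the same 8 genes passed, with log2 fold changes of 0.70 for S100A4, 0.69 for S100P, 0.35 for S100A13, 0.30 for S100A2, 0.18 for S100A11, 0.16 for S100A6, 0.13 for S100A16 and -0.41 for S100A14. In a bulk library, more cells that express a gene and more RNA per cell cannot be told apart.

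**Figure D2:**
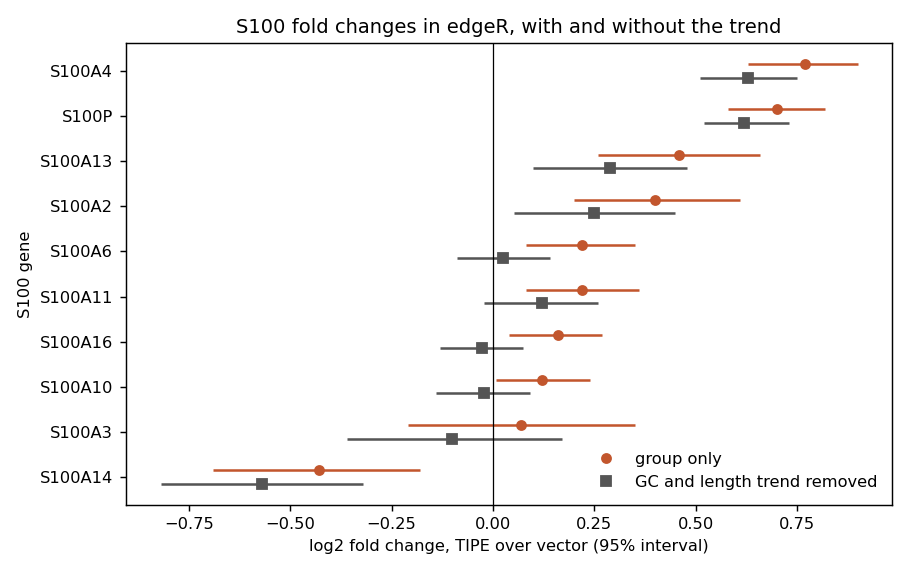
Log2 fold change of TIPE over vector for each S100 gene with its 95% interval, in edgeR with the group alone (orange circles) and with each library's GC and length trend removed (grey squares). S100A4, S100P, S100A13, S100A2 and S100A14 keep intervals that exclude 0 in both, while S100A6, S100A16 and S100A10 move to 0.025, -0.026 and -0.023.

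S100A4 (ENSG00000196154, chromosome 1, 153543613 to 153550136), also called metastasin, binds the heavy chain of non-muscle myosin IIA and promotes the turnover of its filaments. It was at 178, 163 and 171 FPKM in vector replicates 1, 2 and 3 and at 274, 253 and 303 FPKM in TIPE replicates 1, 2 and 3. Every TIPE library lay above every vector library. The underlying counts were 2344 to 3002 in vector and 3996 to 4875 in TIPE libraries. The log2 fold change was 0.77 ± 0.063 (SE), a fold of 1.70 (edgeR adjusted p = 1.44e-08), and 0.63 after removal of the GC and length trend (edgeR adjusted p = 1.28e-07). The gene S100A3 lies within the span of S100A4 on the same strand, but no exon base is shared in GENCODE release 29.

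S100P (ENSG00000163993), first described in placenta, binds ezrin and IQGAP1 inside the cell and AGER outside it. It was at 172, 177 and 178 FPKM in the vector libraries and at 276, 260 and 279 FPKM in the TIPE libraries. The vector libraries were close together and all TIPE libraries lay well above them. TIPE over vector gave a log2 fold change of 0.70 ± 0.056 (SE), a fold of 1.62 (edgeR adjusted p = 1.11e-08), and 0.62 without the trend (edgeR adjusted p = 3.47e-08). The 95% intervals of S100P (0.58 to 0.82) and S100A4 (0.63 to 0.90) overlapped.

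S100A13 (ENSG00000189171), which takes part in the release of FGF1 and interleukin-1 alpha by a route without signal peptides, was at 11.6, 11.9 and 12.8 FPKM in the vector and at 13.2, 15.9 and 18.6 FPKM in the TIPE libraries. The groups did not overlap, but the TIPE libraries were widely spread and TIPE replicate 1 lay close to the vector range. On the log2 scale the difference was 0.46 ± 0.10 (SE) (edgeR adjusted p = 0.000654), and 0.29 without the trend (edgeR adjusted p = 0.0194). S100A13 shares 235 exon bases in GENCODE release 29 with S100A1 on the opposite strand and 536 with ENSG00000271853 on its own strand, out of 2216. Those genes averaged 23.7 and 17 counts against 516 for S100A13, and a strand setting for the counting was not given in the sources used here.

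S100A2 (ENSG00000196754, chromosome 1, 153561108 to 153567890), a nuclear member found in basal epithelia, was at 11.4, 10.2 and 10.6 FPKM in the vector and at 12.1, 12.8 and 15.7 FPKM in the TIPE libraries. The groups did not overlap, and TIPE replicate 3 was the highest. The log2 fold change was 0.40 ± 0.10 (SE) (edgeR adjusted p = 0.00260), and 0.25 without the trend (edgeR adjusted p = 0.0477).

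S100A14 (ENSG00000189334, chromosome 1, 153614255 to 153616986), a member found mainly in epithelia, lies beside S100A16 and S100A13 in the cluster. It was at 9.31, 8.43 and 7.74 FPKM in the vector and at 6.88, 5.35 and 5.83 FPKM in the TIPE libraries. All TIPE libraries lay below all vector libraries, with TIPE replicate 1 the nearest to them. It rested on 104 to 210 counts per library. TIPE over vector gave a log2 fold change of -0.43 ± 0.12 (SE), 1.35-fold lower (edgeR adjusted p = 0.00758), and -0.57 without the trend (edgeR adjusted p = 0.00108). Without TIPE replicate 2 it was -0.35 and did not pass (edgeR adjusted p = 0.0534).

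S100A6 (ENSG00000197956, chromosome 1, 153534599 to 153536244), or calcyclin, binds CACYBP and SUGT1 and is linked to proliferation. It was at 610, 599 and 636 FPKM in the vector and at 698, 603 and 742 FPKM in the TIPE libraries. TIPE replicate 2 lay within the vector range, so the groups overlapped. On the log2 scale the difference was 0.22 ± 0.064 (SE) (edgeR adjusted p = 0.0103), but 0.025 without the trend (95% interval -0.089 to 0.14, edgeR adjusted p = 0.765). The rise did not pass without vector replicate 1 or 2 (edgeR adjusted p = 0.0553 and 0.0739).

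S100A11 (ENSG00000163191, chromosome 1, 152032506 to 152047907), or calgizzarin, a partner of annexin A1, was at 255, 267 and 303 FPKM in the vector and at 293, 297 and 327 FPKM in the TIPE libraries. Vector replicate 3 lay within the TIPE range. The log2 fold change was 0.22 ± 0.067 (SE) (edgeR adjusted p = 0.0115), and 0.12 without the trend (edgeR adjusted p = 0.185). It did not pass without vector replicate 1 or 2 (edgeR adjusted p = 0.109 and 0.0780). S100A16 (ENSG00000188643, chromosome 1, 153606886 to 153613145), a widely expressed member, was at 215, 219 and 231 FPKM in the vector and at 231, 228 and 246 FPKM in the TIPE libraries. The groups overlapped at their edges. Its log2 fold change of 0.16 ± 0.056 (SE) passed (edgeR adjusted p = 0.0303), but was -0.026 without the trend (edgeR adjusted p = 0.718). It did not pass without vector replicate 1, vector replicate 2 or TIPE replicate 2 (edgeR adjusted p = 0.166, 0.131 and 0.0598).

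S100A10 (ENSG00000197747), or p11, has lost calcium binding and is held in its open form, in which it joins annexin A2 in a complex at the plasma membrane. It was at 284, 279 and 293 FPKM in the vector and at 284, 293 and 314 FPKM in the TIPE libraries, and the groups overlapped. The log2 fold change of 0.12 did not pass (95% interval 0.0067 to 0.24 before adjustment, edgeR adjusted p = 0.0839). It did pass without TIPE replicate 1 (0.16, edgeR adjusted p = 0.0451) and with upper-quartile factors (0.14, edgeR adjusted p = 0.0499). S100A3 (ENSG00000188015, chromosome 1, 153547329 to 153549258), a cysteine-rich member known from the hair cuticle, was at 7.62, 8.66 and 9.53 FPKM in the vector and at 9.50, 7.77 and 8.60 FPKM in the TIPE libraries. The groups lay over each other. The log2 fold change was 0.070 (95% interval -0.21 to 0.35, edgeR adjusted p = 0.713).

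Ratios within a library do not depend on library size factors. Per 100 counts of S100A10, S100A4 had 58.6, 54.5 and 54.6 counts in the vector and 90.4, 80.9 and 90.1 counts in the TIPE libraries. S100P had 28.2, 29.5 and 28.2 against 45.3, 41.4 and 41.4. Both ratios were higher in all TIPE than in all vector libraries. S100A14 had 4.13, 3.81 and 3.33 counts per 100 of S100A10 in the vector and 3.06, 2.31 and 2.34 in the TIPE libraries. Per 100 counts of S100A16, its neighbour in the cluster, S100A14 had 3.26, 2.89 and 2.52 against 2.24, 1.76 and 1.78. S100A6 had 206, 206 and 208 counts per 100 of S100A10 in the vector and 236, 198 and 227 in the TIPE libraries, which straddle the vector values. S100A10 and S100A16 were taken as references after their values were seen, and no test was made on these ratios. Together the 10 genes took 0.171% to 0.181% of all counts in vector and 0.189% to 0.217% in TIPE libraries. S100A6 supplied 34.1% to 34.4% of that sum in the vector and 30.9% to 33.8% in the TIPE libraries, and S100A4 supplied 8.94% to 9.80% and 12.7% to 13.2%.

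**Figure D3:**
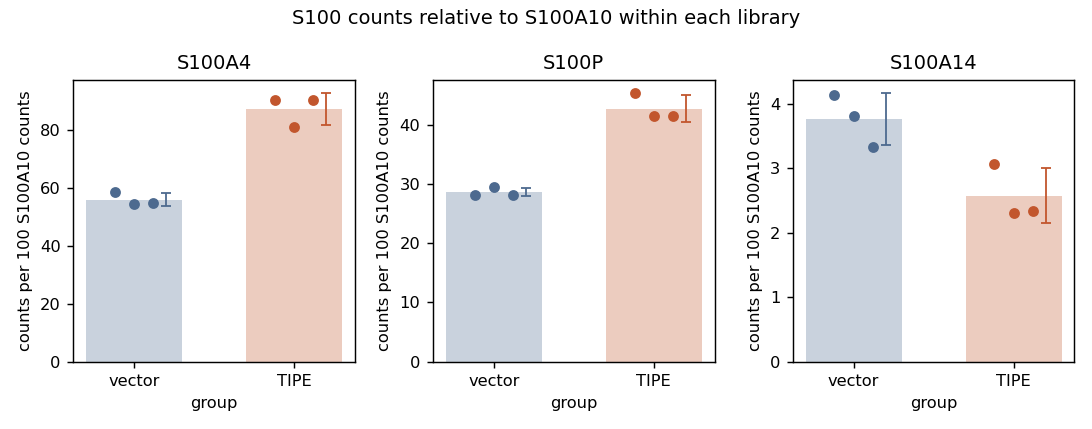
Counts of S100A4, S100P and S100A14 per 100 counts of S100A10 in the same library, on axes that start at 0. Points are libraries (n = 3 per group), bars are means and error bars are SD. S100A4 and S100P lie higher in all TIPE libraries (80.9 to 90.4 and 41.4 to 45.3) and S100A14 lies lower (2.31 to 3.06).

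The calls differed in how well they held across 18 other settings, which changed the test, scaling, filter, pairing or libraries. S100A4, S100P and S100A13 passed in all of them, with log2 fold changes of 0.63 to 0.82, 0.62 to 0.72 and 0.28 to 0.58. S100A2 passed in 17 (0.25 to 0.48) and S100A14 in 17 (-0.57 to -0.35). S100A6 passed in 10 and S100A11 in 11 of the 18, and S100A16 in 9.

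**Figure D4:**
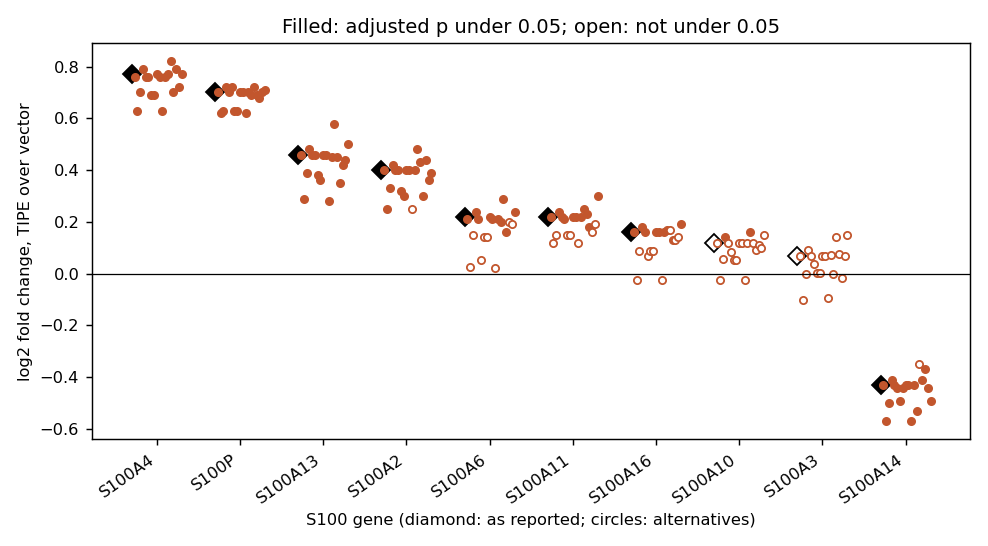
Log2 fold change of TIPE over vector for each S100 gene as reported (diamonds) and under 18 other settings (circles). Filled symbols have an adjusted p under 0.05. S100A4, S100P and S100A13 are filled throughout, and S100A3 is open throughout and lies on both sides of 0.

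Genes of the proteins that S100 proteins bind moved in both directions. Of 22 listed binding partners, receptors and extracellular targets, 17 were tested, of which 8 fell, 4 rose and 5 did not pass, against 20.7% lower and 20.9% higher over all tested genes. The 4 that rose are near that share. The list median was -0.17, against -0.00048 over all tested genes, and with the GC and length trend removed 7 fell and 3 rose, with a median of -0.042, against 16.8% lower and 17.6% higher over all tested genes. All 7 of these and 1 of the 3 had also passed before. Without TIPE replicate 3, 9 fell and 4 rose. The cell adhesion molecule ALCAM fell from 2.92 ± 0.0379 to 1.19 ± 0.0551 FPKM (SD, n = 3 each), or -1.23 ± 0.10 (SE) in log2 fold change (edgeR adjusted p = 7.31e-09). ANXA1, annexin A1 and a partner of S100A11, fell from 6.87 ± 0.629 to 3.92 ± 0.150 FPKM (log2 fold change -0.74, edgeR adjusted p = 1.09e-06). Of the intracellular partners of S100P, the scaffold protein IQGAP1 fell from 24.0 ± 1.26 to 15.1 ± 0.788 FPKM (-0.60, edgeR adjusted p = 1.19e-07). EZR, ezrin, which ties the membrane to actin, fell from 145 ± 5.02 to 121 ± 2.09 FPKM (-0.19, edgeR adjusted p = 0.00818), but did not pass without vector replicate 1 (edgeR adjusted p = 0.0538). Both thus moved against S100P.

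Of the membrane partners of S100A10, ANXA2, annexin A2, was at 88.0 ± 0.740 and 88.7 ± 3.80 FPKM and did not pass (log2 fold change 0.082, edgeR adjusted p = 0.246), but was 0.25 with the trend removed (edgeR adjusted p = 0.00151) and -0.087 after quantile normalization. AHNAK, a giant scaffold protein, fell from 16.3 to 17.9 FPKM in vector to 9.55 to 13.1 FPKM in TIPE libraries (-0.53, edgeR adjusted p = 2.14e-05). SYT1, a calcium sensor of vesicle release that joins S100A13 and FGF1 in a complex, fell from 37.8 to 41.8 FPKM in vector to 26.9 to 29.5 FPKM in TIPE libraries (-0.44, edgeR adjusted p = 3.36e-06). The receptor AGER was scarce, with 25 to 57 counts in vector and 41 to 47 in TIPE libraries, and did not pass (0.20, edgeR adjusted p = 0.555, and 0.0088 without TIPE replicate 3).

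Partners of single members are named next after their values were seen. MYH9, the myosin heavy chain bound by S100A4, fell from 68.0 ± 3.12 to 53.4 ± 3.51 FPKM (-0.28, edgeR adjusted p = 0.00108). CACYBP and SUGT1, bound by S100A6, did not pass (0.072 and -0.17, edgeR adjusted p = 0.402 and 0.0847), but CACYBP did with the trend removed (0.20, edgeR adjusted p = 0.00914). FGF1 had 12 to 20 counts per library, IL1A had 0 to 2 and PLG had 0 in all. The 4 that rose were BSG, STUB1, PPP5C and ANXA11, by log2 fold changes of 0.16 to 0.29, with overlapping FPKM ranges in PPP5C and ANXA11. With the trend removed ANXA11 still passed (0.16, edgeR adjusted p = 0.0347), while BSG, STUB1 and PPP5C did not (edgeR adjusted p = 0.123, 0.670 and 0.137).

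**Figure D5:**
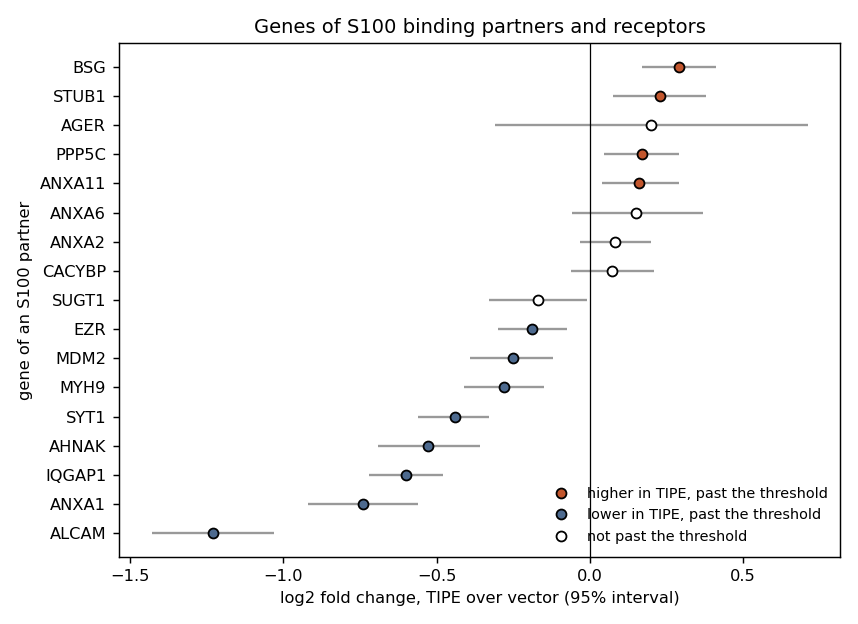
Log2 fold change of TIPE over vector with its 95% interval for the 17 tested genes of S100 binding partners and receptors. The list covers the S100 family as a whole, not only the 10 members. Filled points passed the threshold (orange higher, blue lower). ALCAM at -1.23 and ANXA1 at -0.74 lie lowest and BSG at 0.29 highest.

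The genes outside the family whose log2 CPM values were most like those of S100A4 over the 6 libraries, of 14193 compared, were RABEPK, LIMD2 and OGFR (Pearson r = 0.9995, 0.9987 and 0.9985). Their own log2 fold changes were 0.15, 1.58 and 0.30. For S100A14 they were DUSP16, TRUB1 and ATG2B (r = 0.9932, 0.9912 and 0.9893), with log2 fold changes of -0.32, -0.11 and -0.47. These are descriptions over 6 points in 2 groups that share library and depth.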

How the data were processed

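Poly(A) RNA of 6 SW480 libraries was sequenced. The deposited counts were whole numbers per Ensembl gene, made from reads aligned with HISAT2 2.0.1 to hg38 per the submitters' processing notes. The deposited FPKM values equal those counts scaled by exonic size and library total, within 0.005. A counting tool, annotation release and strand setting were not given in the sources used here. Groups came from the labels.

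Genes with a mean of at least 0.5 FPKM (14205) were tested with edgeR 4.0.16 (quasi-likelihood, TMM factors 0.962 to 1.033, group only, two-sided, Benjamini-Hochberg over all genes, threshold 0.05) in R 4.3.3. Genes under that minimum came from a fit without it, whose adjusted p-values are not on the scale of the main fit. S100A13 had an edgeR adjusted p of 6.42e-07 there against 0.000654, at a log2 fold change of 0.46 in both. S100A16 had 0.0439 against 0.0303, at 0.16 in both. The test was also run on simulated data as a check of the code. Unlike the real data, these had few genes changed and no GC or length trend put in. Alternatives used DESeq2 1.42.0, limma 3.58.1 on log2(FPKM + 1) or log2(FPKM + 0.1), other factors and filters, a replicate block, each library left out, and GC content of 14115 tested genes from GENCODE release 29 (trend by mgcv 1.9.3). Promoters came from RefSeq.

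The members and gene lists were chosen with earlier results of these data known. A listed partner gene is not reported here and was left out of the list's counts. Named by rule were all members, up to 4 genes of each list with the smallest adjusted p, ANXA2, AHNAK, AGER and EZR, and the 3 genes most correlated with the members that rose and fell most. Other partner and marker genes were named after their values were seen.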

Additional observations from a re-analysis of the deposited data

How the results depend on the processing

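Of the 10 S100 genes, 8 passed as reported, with 7 higher and 1 lower. With the GC and length trend removed, with no TMM factors and in limma on log2(FPKM + 1) or log2(FPKM + 0.1), 5 passed in each, 4 of them higher. The median over all tested genes was -0.072 with no TMM factors and -0.055 and -0.07 in these limma fits, against -0.00048 as reported. With a replicate block and the trend removed, 4 passed, 3 of them higher, and S100A2 was lost (edgeR adjusted p = 0.0574). This setting and quantile normalization were chosen after seeing the data. Leaving out 1 library at a time gave 5 to 9 genes, 4 to 8 of them higher and 0 to 1 lower, with 5 (4 higher) without vector replicate 1 or vector replicate 2 and 0 lower without TIPE replicate 2. Over all genes, 2967 were higher as reported but 1912 and 1902 in limma on log2(FPKM + 1) and log2(FPKM + 0.1), where 3242 and 3248 were lower against 2935. The log2 fold change of S100A3 turned to -0.10 with the trend removed, -0.093 with the replicate block as well, -0.0008 with no TMM factors, -0.0025 without TIPE replicate 1 and -0.015 without vector replicate 1 (range with 1 library left out -0.015 to 0.15). S100A10 and S100A16 turned to -0.023 and -0.026 with the trend removed, and to -0.025 and -0.026 with the replicate block as well. AGER turned to -0.021 and -0.015 in the same settings, and ANXA2 to -0.087 after quantile normalization. The causes were not tested. Deviations from the group means were hardly correlated between libraries of the same replicate number (0.00, -0.03 and -0.03). With 3 libraries per group this cannot settle whether the libraries were paired. The replicate block alone left 8 of the S100 genes past the threshold (5601 over all genes, against 5902). The scarce members S100A3 and S100A14 had 98 to 210 counts per library, and their standard errors of 0.14 and 0.12 limit what could be seen.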

Other observations

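Of 30 other EF-hand calcium-binding genes, 29 were tested, of which 9 rose, 4 fell and 16 did not pass, against 20.9% higher and 20.7% lower over all tested genes. The list median log2 fold change was 0.085, against -0.00048 over all tested genes, and without TIPE replicate 3 it was 0.045, with 9 genes higher and 6 lower. With the GC and length trend removed 8 rose and 4 fell, against 17.6% and 16.8% over all tested genes, with a median of 0.048. Of these, 5 of the 8 and 2 of the 4 had also passed before. The nucleobindins, calcium-binding proteins of the Golgi and secretory route, moved in opposite directions. NUCB1 rose from 4.27 ± 0.0529 to 6.81 ± 0.215 FPKM (SD, n = 3 each; log2 fold change 0.74, edgeR adjusted p = 6.23e-07), and NUCB2 fell from 9.40 ± 0.525 to 5.90 ± 0.184 FPKM (-0.60, edgeR adjusted p = 2.86e-07). CIB1, a calcium- and integrin-binding protein, had a log2 fold change of 0.44 (edgeR adjusted p = 4.15e-05). ACTN1, an actin cross-linker, had one of 0.29 (edgeR adjusted p = 0.000544).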
